A study of Rattus norvegicus with 311 samples.

Results

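The subject is the conjugating enzymes of rat hepatocytes, the UDP-glucuronosyltransferases (UGTs) and the cytosolic sulfotransferases (SULTs). Members were chosen by name: every probe of the count table whose symbol begins with Ugt or Sult followed by a digit, with Ugt2b1 left out. This gave 24 probes of 22253, for 22 gene symbols, of which 10 symbols (11 probes) were UGTs and 12 symbols (13 probes) were SULTs.

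The cells were hepatocytes of male Sprague Dawley rats, grown either together with non-parenchymal liver cells (co-culture) or without them (monoculture) in collagen-coated 96-well plates. Wells received a compound or vehicle 24 h before they were sampled on day 1, 3 or 7 of culture. The compounds were ketoconazole (an azole antifungal) at 1, 10 and 30 µM, GW7647 (an agonist of the nuclear receptor PPARα) at 0.01, 0.1 and 1 µM, gemfibrozil (a fibrate that acts through PPARα) at 10, 100 and 1000 µM, and phenobarbital (an activator of the receptor CAR) at 0.1, 1 and 10 mM. The table held 155 libraries of co-culture and 156 of monoculture, in 78 groups of 3 to 5 libraries. The labels call the replicates of a group biological, and the sample titles name the plate (1, 3, 5, 7 or 9). Nothing in the sources used here says that plates held cells of different animals, so each p-value reflects only how much these wells varied.

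The labels of 33 monoculture libraries give ketoconazole as the compound where the library name says phenobarbital, and those of 3 day 3 co-culture libraries give 1 µM GW7647 where the name says 0.1 µM. The names were followed, and every phenobarbital monoculture value rests on that choice. The sample labels write the phenobarbital doses in µM and the study design writes mM, which is used here. At the top dose the libraries named for phenobarbital in monoculture held Cyp2b2, the cytochrome that phenobarbital classically induces in rat liver, at 102, 17.0, 0.268 and 0.984 CPM on plates 1, 3, 5 and 7 on day 1, against 0 to 2.55 CPM over the 8 vehicle libraries of both cultures.

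UGTs sit in the membrane of the endoplasmic reticulum and transfer glucuronic acid from UDP-glucuronic acid to drugs, bilirubin, steroids and bile acids. SULTs work in the cytosol and transfer a sulfonate group from the cofactor PAPS, mostly to phenols and steroids. Both make their substrates more water-soluble, and liver is the main site of both. In rat liver, receptors such as CAR and PXR are known to raise some UGT genes, and the factor HNF4α is known to sustain many liver genes. The genes lie in blocks: in RefSeq's rat assembly GRCr8, 8 members lie in 1 stretch of chromosome 14, in the order Sult1d1, Sult1b1, Ugt2a1, Ugt2b15, Ugt2b37, Ugt2b35, Ugt2b7 and Ugt2b10, with 7 other protein-coding genes among them. The 8 protein-coding Ugt1a genes of chromosome 9 have separate first exons and 1 shared 3′ end. Where on a transcript each probe binds is not given in the sources used here. Counts of the Ugt1a1 and Ugt1a5 probes could therefore mix among all 8 Ugt1a genes. Counts could likewise mix between close copies within the Ugt2b and the Sult1c or Sult2a genes. The gene names below are those of the probes.

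RefSeq's promoter table covered 18 of the 22 member symbols, as windows from 250 bases before to 50 bases after the transcription start. It had no entry for Ugt1a5, Ugt2a1, Sult4a1 and Ugt3a2. Printed are promoters of covered members that the results turn on. Every AGGTCA (on either strand), the core bound by nuclear receptors, is in capitals. The windows are Ugt1a1 at chr9:96248893-96249192 (plus strand), Ugt2b10 at chr14:21462591-21462890 (plus), Ugt2b15 at chr14:21122616-21122915 (plus), Sult1b1 at chr14:20771667-20771966 (plus) and Sult1a1 at chr1:190706063-190706362 (minus), all in GRCr8. RefSeq's span for Ugt2b10 begins at 21436939, so its printed window lies inside that gene and not at its outer start. The other printed windows lie at the outer start of their gene.
Ugt1a1: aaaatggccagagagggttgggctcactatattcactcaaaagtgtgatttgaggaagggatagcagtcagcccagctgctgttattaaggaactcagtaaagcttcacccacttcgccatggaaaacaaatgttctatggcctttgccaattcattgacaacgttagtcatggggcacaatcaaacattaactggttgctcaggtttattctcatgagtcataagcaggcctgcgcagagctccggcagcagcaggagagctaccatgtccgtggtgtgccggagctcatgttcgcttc
Ugt2b10: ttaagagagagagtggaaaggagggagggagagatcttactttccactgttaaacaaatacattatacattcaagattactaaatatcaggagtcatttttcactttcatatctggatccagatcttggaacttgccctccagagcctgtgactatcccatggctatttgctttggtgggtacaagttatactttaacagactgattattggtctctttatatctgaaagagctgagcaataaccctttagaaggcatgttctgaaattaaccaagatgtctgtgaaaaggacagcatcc
Ugt2b15: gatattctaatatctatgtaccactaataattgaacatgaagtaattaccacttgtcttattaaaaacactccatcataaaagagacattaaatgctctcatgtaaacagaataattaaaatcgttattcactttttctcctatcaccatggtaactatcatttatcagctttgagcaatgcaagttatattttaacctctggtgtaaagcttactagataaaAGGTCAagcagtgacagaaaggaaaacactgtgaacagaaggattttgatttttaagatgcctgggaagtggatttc
Sult1b1: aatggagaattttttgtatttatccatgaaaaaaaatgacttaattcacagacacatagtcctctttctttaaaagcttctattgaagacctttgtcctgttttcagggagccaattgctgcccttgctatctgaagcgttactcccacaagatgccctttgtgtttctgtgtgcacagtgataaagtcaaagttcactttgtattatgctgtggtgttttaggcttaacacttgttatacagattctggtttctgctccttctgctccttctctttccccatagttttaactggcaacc
Sult1a1: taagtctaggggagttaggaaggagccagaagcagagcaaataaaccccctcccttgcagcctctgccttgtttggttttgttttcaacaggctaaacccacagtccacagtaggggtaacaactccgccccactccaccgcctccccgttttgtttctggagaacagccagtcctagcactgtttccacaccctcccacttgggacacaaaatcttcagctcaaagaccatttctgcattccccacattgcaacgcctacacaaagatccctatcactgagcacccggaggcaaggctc
AGGTCA was found in 2 of the 18 member windows (11.1%), at -27 in Ugt2b15 and at -15 in Ugt2b37, counted from the transcription start, and in 16.2% of all 33469 windows in the table. GCGTG, the core bound by the aryl hydrocarbon receptor, was found in 2 member windows and in 29.7% of all, and TGACNNNGC, the antioxidant response core, in 0 member windows and 12.1% of all. Read on its other strand AGGTCA begins with the TGAC of the antioxidant core, so 1 stretch could match both. A match describes the letters only.

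The shallowest of the libraries held 412414 counts and the deepest 12272575 (median 6054414), and 1 held under 1000000 (ketoconazole 30 µM, monoculture, day 7, plate 1). Levels are given in CPM, counts per 1000000 counts of a library after TMM scaling. Hepatocyte markers summed to 7461 to 11848 CPM in day 7 co-culture vehicle wells, against 44256 to 88601 CPM in day 1 wells, and to 3654 to 15932 CPM in day 7 monoculture wells, against 36460 to 55591 CPM in day 1 wells. All 10 of them had counts in every vehicle group. In the same order, macrophage markers (9 probes) summed to 909 to 1861 CPM against 107 to 177 CPM in co-culture, and to 322 to 703 CPM against 91.7 to 173 CPM in monoculture, where Adgre1 was at 0 on day 7. Stellate and mesenchymal markers (9 probes) summed to 3181 to 16489 CPM against 10.4 to 79.8 CPM in co-culture, and to 974 to 10879 CPM against 17.5 to 61.9 CPM in monoculture, where Lum was at 0 on day 7. These are bulk samples, in which fewer cells of a type and less RNA per cell cannot be told apart.

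A few members supplied nearly all of the counts. Of 1220332 member counts over all libraries, Ugt1a5 held 60.9%, Sult1a1 (the phenol sulfotransferase) 11.6%, Ugt2b15 (steroid glucuronidation) 7.96%, Ugt1a1 (the bilirubin glucuronosyltransferase) 7.40% and Sult1b1 (phenols and thyroid hormones) 4.76%. The mean over all libraries was 387 CPM for Ugt1a5, 80.4 for Sult1a1, 51.1 for Ugt2b15, 44.01 for Ugt1a1, 27.3 for Sult1b1 and 19.4 for Ugt2b35. Ugt1a1 had a median of only 3.50 CPM. The median of Ugt1a5 was 251 CPM. The Ugt1a1 mean rested on 9 libraries of plate 9, described further on. Over the other 302 libraries Ugt1a1 averaged 8.71 CPM and held 2.35% of the member counts, below Sult1b1 (25.1 CPM, 5.82%) and Ugt2b35 (19.1 CPM, 4.62%), and Ugt1a5 averaged 272 CPM and held 56.6%. Below these came Ugt2b10 at a mean of 5.12 CPM, Ugt2a1 (first described in olfactory tissue) at 5.11 by probe 47105, and Ugt2b7 at 4.52. Sult1c3, Ugt2b37 and Sult4a1 (mainly a brain enzyme) averaged 1.77, 1.40 and 1.17 CPM. Each of the remaining 12 probes averaged under 1 CPM, among them Sult2b1 (a steroid sulfotransferase) at 0.733, the hydroxysteroid sulfotransferases Sult2a2 and Sult2a6, and Ugt8 (the galactolipid enzyme of myelin) with 2 counts in 1 library. In all, 10 member probes held under 1000 counts over the 311 libraries.

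2 genes had 2 probes each. Ugt2a1 probe 47105 held 10582 counts in 274 libraries and probe 50422 held 923 counts in 129 libraries. Both were above 0 in 122 libraries. Sult2a6 had 372 counts in 109 libraries by probe 9972 and 117 counts in 46 libraries by probe 32471. The low counts decided what could be tested: 11 of the 24 member probes passed the count filter in the fit of the vehicle libraries, 15 on day 1, 16 on day 3 and 16 on day 7. What is said of tested members does not extend to the rest.

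Plate 9 stood apart and is described before the comparisons. It held 9 day 3 libraries, of gemfibrozil at all 3 doses in both cultures, of GW7647 at 0.1 and 1 µM in co-culture (the first of these in the group with the differing dose label) and of GW7647 at 1 µM in monoculture, and no vehicle well. Ugt1a1 read 229 to 2383 CPM on plate 9 (median 1284), against 0 to 32.1 CPM (median 2.81) in the other 33 libraries of the same groups. Ugt1a5 read 1814 to 6624 CPM (median 4076) on plate 9, against 28.7 to 769 CPM (median 298) in the others. Ugt2b37 read 3.32 to 110 CPM (median 33.4) on plate 9, against 0 to 0.883 CPM in the others.

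In each of the 9 groups the plate 9 well was the highest for these 3 genes, with no overlap. Ugt1a1 amounted to 7.04% to 53.9% of the Ugt1a5 level on plate 9 (median 31.7%), against 0% to 11.5% (median 0.833%) in the others. Other members did this less fully: the plate 9 well was the highest for Sult1b1 in 7 of 9 groups, for Ugt2b35 and Ugt2b10 in 6 and for Ugt2b15 in 5. Some went the other way: the plate 9 well was the lowest in 4 of 9 groups and the highest in 0 for Ugt2a1 (probe 47105) and for Ugt2b7, and the lowest in 2 and the highest in 0 for Sult1a1, which had a median of 61.0 CPM on plate 9 against 103 CPM in the others. Over the whole table, 1277 of 12777 probes with 1000 or more counts (9.99%) were higher in all 9 plate 9 libraries than in all 33 others, and 468 (3.66%) were lower. Abcg2, which exports sulfate conjugates, stood at 29.4 to 92.9 CPM against 0 to 9.59 CPM, and Apoa2, a hepatocyte apolipoprotein, at 128 to 374 CPM against 0 to 50.3 CPM. Apoa2 is 1 of the 10 hepatocyte markers, and their sum did not follow it. They summed to 6666 to 18817 CPM (median 12870) on plate 9. In the other 45 day 3 libraries with gemfibrozil or GW7647 they summed to 6367 to 82532 CPM (median 29430). Ppara, the receptor of GW7647 and gemfibrozil, was lower, at 1.00 to 6.21 CPM against 13.4 to 92.2 CPM. The part of the plate in these values was not tested apart from dose, since the plate had no vehicle well. The large day 3 fold changes of Ugt1a1, Ugt1a5 and Ugt2b37 with gemfibrozil and GW7647 rest on this plate, and none passed edgeR's test. DESeq2 called none of these 3 genes there and gave no adjusted p for Ugt1a1 and Ugt2b37. No call named below changed when plate 9 was left out.

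**Figure D1:**
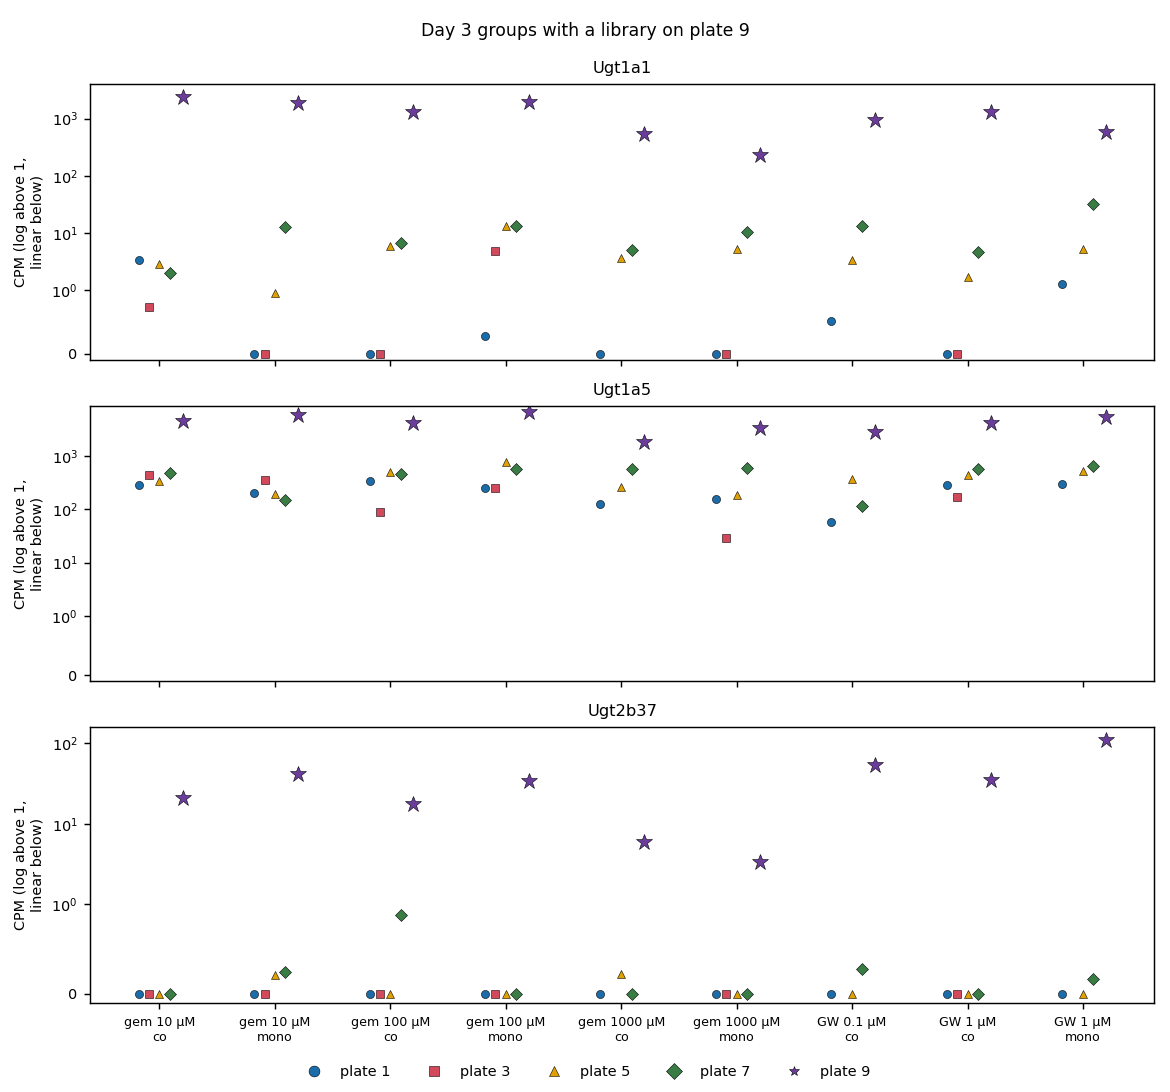
Level (CPM, logarithmic above 1 and linear below) of Ugt1a1, Ugt1a5 and Ugt2b37 in the 9 day 3 groups that include a plate 9 library; each point is 1 library and the symbol gives the plate. The star of plate 9 is the highest point in all 9 groups for all 3 genes.

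In vehicle wells Ugt1a5, the most abundant member, and Ugt1a1 fell between day 1 and day 7 in both cultures, and Sult1a1 and Ugt2b15 fell in co-culture. In co-culture, day 7 against day 1, 5 of 11 tested members were lower and 0 higher (edgeR quasi-likelihood test, Benjamini-Hochberg adjusted p under 0.05). Of all probes tested there, 22.8% passed in either direction and 7.56% were lower. In monoculture 3 of 11 were lower and 0 higher, where 22.4% of all probes passed and 8.75% were lower. Both counts hold Sult1c3, which passed the count filter only through its day 1 libraries and so had to differ. Without it 4 of 10 members were lower in co-culture and 2 of 10 in monoculture. The 10 include Ugt2b10, not called here, which may also have passed the filter through day 1. The median log2 fold change of these 10 was -0.74 in co-culture and -0.71 in monoculture, with 5 of the 10 above 0 in both cultures, beside 0.22 and 0.24 over all probes tested. With Sult1c3 the medians were -1.66 and -1.47. As a sum, the 24 probes averaged 915 ± 221, 470 ± 121 and 251 ± 102 CPM in co-culture vehicle wells on days 1, 3 and 7, and 738 ± 252, 484 ± 202 and 261 ± 155 CPM in monoculture wells (SD, n = 4 each).

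In co-culture wells of plates 1, 3, 5 and 7, Ugt1a5 stood on day 1 at 400.5, 522, 555.6 and 649.4 CPM, on day 3 at 137.2, 337.7, 283.5 and 465.2 CPM, and on day 7 at 28.7, 59.4, 54.2 and 235.8 CPM. The monoculture levels were on day 1 352.3, 440.1, 459 and 387.2 CPM, on day 3 95.9, 285.7, 438.5 and 501.1 CPM, and on day 7 64.6, 47.3, 23.1 and 235.3 CPM. Day 7 lay below day 1 on every plate and the 2 days did not overlap, while day 3 overlapped day 1 in both cultures. Plate 7 kept the highest day 7 level in both. The day 7 to day 1 log2 fold change was -2.42 ± 0.62 (SE) in co-culture (adjusted p = 0.00697) and -2.06 ± 0.61 in monoculture (adjusted p = 0.0181). The later step, day 7 against day 3, gave -1.71 ± 0.60 in co-culture (adjusted p = 0.0498; 18.5% of all probes passed) and -1.79 ± 0.60 in monoculture (adjusted p = 0.0458; 15.7% passed).

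The fall of Ugt1a1 in co-culture was already called on day 3. Its co-culture wells stood on day 1 at 3.65, 10.2, 57.1 and 11.2 CPM, on day 3 at 0, 0.824, 1.15 and 0 CPM, and on day 7 at 4.26, 1.88, 0.174 and 3.95 CPM. Its monoculture wells stood on day 1 at 9.06, 16.5, 18.4 and 10.6 CPM, on day 3 at 0, 1.78, 5.04 and 1.95 CPM, and on day 7 at 1.94, 1.56, 0.664 and 4.61 CPM. Day 3 lay below day 1 without overlap in both cultures. Day 7 did so in monoculture, while in co-culture the day 7 wells of plates 1 and 7 lay above the lowest day 1 well. In co-culture the day 3 to day 1 log2 fold change was -5.23 ± 1.11 (adjusted p = 0.00521; 9.06% of all probes passed). The day 7 to day 1 change was -2.92 ± 0.92 in co-culture (adjusted p = 0.0242) and -2.52 ± 0.91 in monoculture (adjusted p = 0.048). With the plate as a block the co-culture call was lost (adjusted p = 0.0743).

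Among the Ugt2b genes, Ugt2b15 fell in co-culture. It stood there on day 1 at 100, 121, 163 and 84.0 CPM, on day 3 at 55.2, 21.2, 25.0 and 24.4 CPM, and on day 7 at 51.1, 20.1, 9.9 and 10.6 CPM. The days 3 and 7 overlapped each other and lay below day 1. The log2 fold change of day 7 against day 1 was -2.28 ± 0.67 in co-culture (adjusted p = 0.0172). In monoculture Ugt2b15 stood on day 7 at 78.8, 28.2, 3.32 and 10.0 CPM, against 77.2, 43.8, 152 and 101 CPM on day 1, lower on 3 of 4 plates, with -1.51 ± 0.65 (adjusted p = 0.0969). With the plate as a block it passed (0.0243), a fit in which 29.4% of all probes passed in monoculture and 28.6% in co-culture.

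Ugt2b10, Ugt2b35 and Ugt2a1 are described here after their values were seen. Ugt2b10 read 2.27, 0.941, 0.521 and 0.107 CPM on day 7 in co-culture, against 5.26, 8.86, 12.8 and 0.19 CPM on day 1, and 3.59, 1.4, 0 and 0.678 CPM in monoculture, against 13.2, 3.01, 15.7 and 5.73 CPM. It was lower on 4 of 4 plates in both cultures, with log2 fold changes of -2.75 ± 1.15 and -2.60 ± 1.13. Off day 1 its vehicle group means were 0.325 to 1.42 CPM, against 6.77 CPM in co-culture and 9.41 CPM in monoculture on day 1. Ugt2b10 may thus have passed the count filter through day 1 alone, which would set its direction. These values are a description and no test of Ugt2b10 over time is read. Ugt2b35 in monoculture stood on day 1 at 13.5, 7.87, 16.4 and 14.2 CPM, on day 3 at 4.08, 6.24, 3.15 and 10.1 CPM, and on day 7 at 43.8, 26.2, 6.14 and 22.1 CPM. Its day 7 to day 3 log2 fold change was 2.10 ± 0.59 (adjusted p = 0.0204). Ugt2a1 (probe 47105) rose over the same step in monoculture, with 19.9, 15.8, 1.99 and 1.49 CPM on day 7 against 0, 0.669, 0.63 and 0.531 CPM on day 3, a log2 fold change of 4.32 ± 1.30 (adjusted p = 0.0284).

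Of the sulfotransferases, Sult1a1 fell in co-culture and Sult1b1 did not pass in either. In co-culture Sult1a1 stood on day 1 at 134, 236, 235 and 70.8 CPM, on day 3 at 154, 62.4, 34.5 and 124 CPM, and on day 7 at 27.4, 49.1, 46.4 and 83.6 CPM. Only the day 7 well of plate 7 reached into the day 1 range. The log2 fold change was -1.66 ± 0.55 (adjusted p = 0.0321). The monoculture wells had 48.9, 38.9, 22.9 and 92.3 CPM on day 7, against 94.9, 115, 334 and 51.9 CPM on day 1, with -1.47 ± 0.55 (adjusted p = 0.0553). Plate 7 was again the plate on which day 7 was not lower.

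Sult1b1 differed widely between plates. In co-culture it stood on day 1 at 4.25, 12.5, 121 and 6.67 CPM, on day 3 at 26.8, 5.77, 7.19 and 16.4 CPM, and on day 7 at 95.5, 32.2, 15.6 and 17.2 CPM. Its day 7 to day 1 log2 fold changes were 0.19 ± 0.98 and 0.30 ± 0.98 in co-culture and monoculture (adjusted p = 0.906 and 0.856). In co-culture Sult1c3 had 0, 0, 0 and 0.427 CPM on day 7, against 1.82, 7.78, 4.77 and 5.33 CPM on day 1. In monoculture it had 0, 0, 0.166 and 0 CPM on day 7, against 1.11, 1.29, 4.56 and 14.6 CPM on day 1. The days did not overlap in either culture. Summed over the wells of a group, 4 counts on day 7 stood against 116 on day 1 in co-culture and 1 against 131 in monoculture. In CPM, day 7 was 33.4-fold lower in co-culture (95% counting interval 12.7 to 125) and 135-fold lower in monoculture (23.8 to 5364), by counting error only. Since the filter on low counts set its direction, these values are a description and no test of Sult1c3 over time is read. It was also the 1 member past the threshold between days 3 and 1 in monoculture, a step at which 2.52% of all probes passed.

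**Figure D2:**
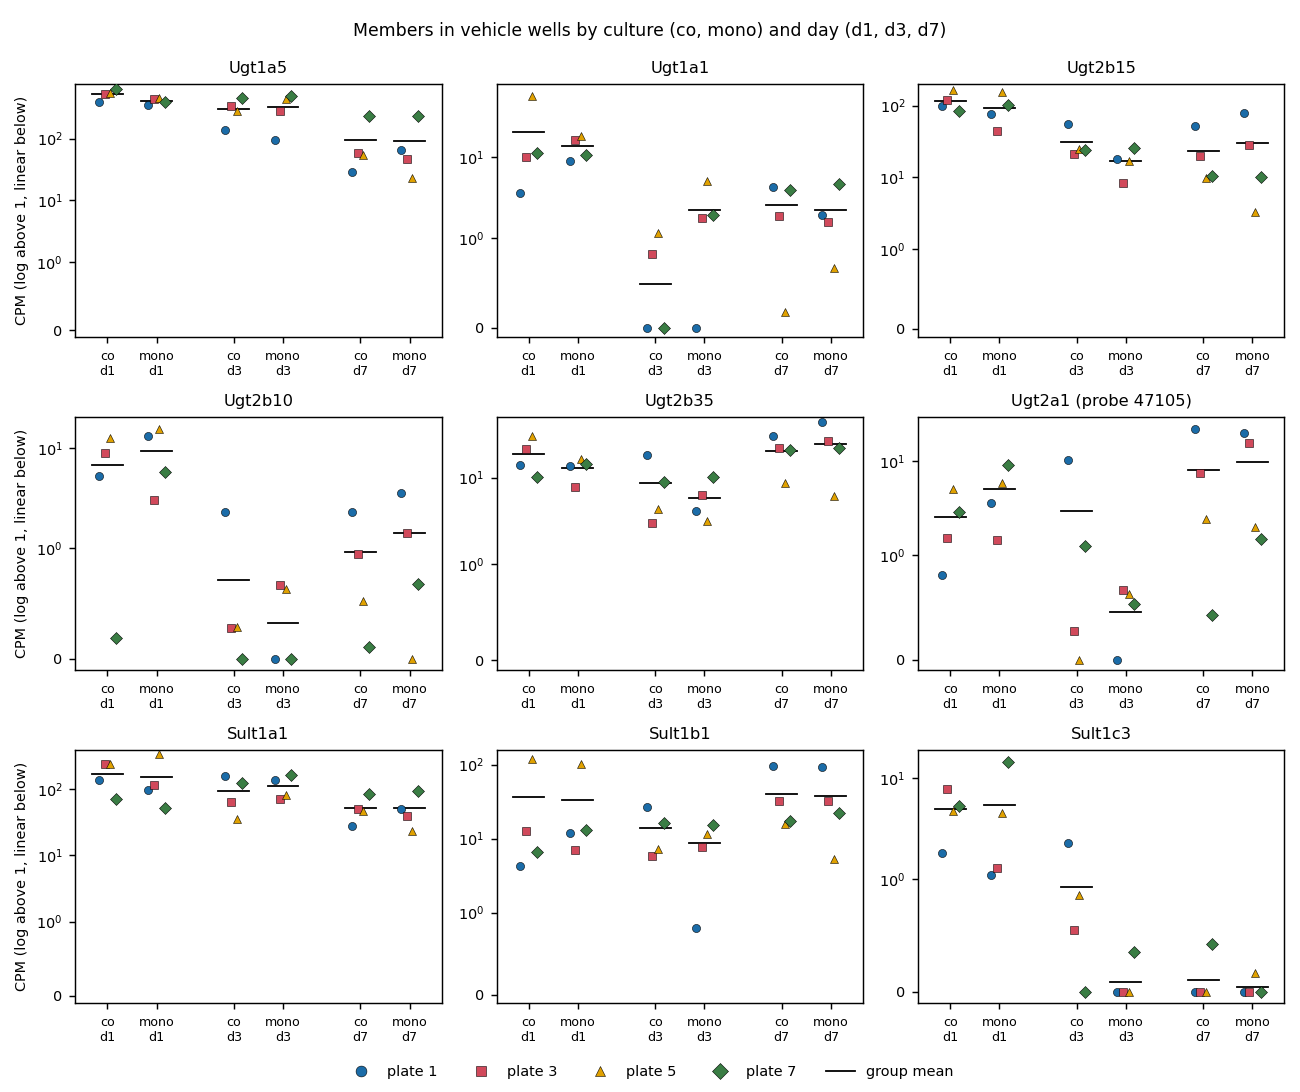
Level (CPM, logarithmic above 1 and linear below) of 9 member probes in vehicle wells, by culture (co, mono) and day (d1, d3, d7); each point is 1 library, the symbol gives its plate and the bar is the group mean. Ugt1a5 on day 7 lies below all day 1 points, while Sult1b1 shows no such order.

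Each of the calls over time named above, Sult1c3 aside, was lost without at least 1 of the plates. The Ugt1a5 fall in co-culture was lost only without plate 3 (adjusted p = 0.0734), and in monoculture without plate 3 or 5 (up to 0.139). Those of Sult1a1 (without plate 1, 3 or 5; up to 0.194) and Ugt2b15 (without plate 3, 5 or 7; up to 0.102) in co-culture were lost more widely. Ugt1a1 in co-culture lost its day 3 call only without plate 3 (0.0514), its day 7 call without plate 3 or 5 (up to 0.311), and in monoculture lost it without any of the 4 plates (up to 0.187).

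Hepatocyte markers moved with these falls: 7 of 10 fell in co-culture and 6 of 10 in monoculture from day 1 to day 7, and none rose. Macrophage markers rose in 5 of 8 tested in both cultures, with 1 lower in co-culture, and stellate and mesenchymal markers rose in 6 of 6 tested in both. Their part in the members' falls was not tested. A list around UDP-glucuronic acid and glucuronides held Ugp2, Ugdh, Slc35d1, Slc35b1, Slc35b4, Slc35a3 and Gusb. Of these 7 genes 6 were tested and only Ugp2, which makes UDP-glucose, passed. It averaged 49.7 CPM on day 7 against 164 CPM on day 1 in co-culture (log2 fold change -1.67, adjusted p = 0.000246) and 30.4 against 169 CPM in monoculture (-2.38, adjusted p = 8.42e-06). Of 10 tested genes of PAPS supply and sulfate handling, Slc26a1, a sulfate transporter, fell in co-culture (-3.41, adjusted p = 0.0383), and in monoculture Sumf1 fell (-0.96) and Tpst2 rose (1.18). Among the receptors and factors, Foxa3 fell in both cultures. It averaged 41.2 CPM on day 7 against 279 CPM on day 1 in co-culture (-2.69, adjusted p = 0.000246) and 55.3 against 329.8 CPM in monoculture (-2.46, adjusted p = 0.000573). Nr1i2, the gene of PXR, rose in monoculture (1.37, adjusted p = 0.026). Of 6 tested conjugate transporters, Abcg2 fell in both cultures (-2.80 and -3.23).

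Ketoconazole at 30 µM lowered Sult1a1 on day 1 in both cultures, and Sult1b1 was also called, with a size that rested on plate 5. In co-culture 2 of 15 tested members passed, both lower, where 3.85% of all probes passed, and in monoculture the count was also 2 of 15, beside 6.97% of all probes. Sult1a1 read 10.1, 21.99, 20.7 and 13.1 CPM with ketoconazole in co-culture (plates 1, 3, 5 and 7), against 134, 236, 235 and 70.8 CPM with vehicle. The monoculture wells had 14.3, 36.6, 4.71 and 29.3 CPM with ketoconazole, against 94.9, 115, 334 and 51.9 CPM. No treated well reached the lowest vehicle well in either culture. The log2 fold changes were -3.35 ± 0.78 (adjusted p = 0.00567) and -2.79 ± 0.76 (adjusted p = 0.0148).

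Sult1b1 read 6.02, 1.13, 1.59 and 5.19 CPM with ketoconazole in co-culture, against 4.25, 12.5, 121 and 6.67 CPM with vehicle, and 3.69, 0.96, 6.64 and 2.35 CPM in monoculture, against 11.8, 7.01, 101 and 12.9 CPM. In co-culture the treated wells of plates 1 and 7 lay above the lowest vehicle well, and in monoculture the groups did not overlap. Its log2 fold changes were -3.38 ± 1.01 (adjusted p = 0.0397, and 0.0589 with the plate as a block) and -3.23 ± 1.00 (adjusted p = 0.034). The vehicle well of plate 5, above 100 CPM in both cultures, weighs on these folds. Without plate 5 they were -0.92 in co-culture (adjusted p = 0.786) and -2.18 in monoculture (adjusted p = 0.419). On plate 1 in co-culture the treated well was above the vehicle well. Leaving out plate 1 ended the Sult1a1 call in co-culture (adjusted p = 0.0783), and plate 1 or 5 that in monoculture (up to 0.468, at a log2 fold change of -1.69 without plate 5). The Sult1b1 calls were lost without any plate in co-culture (up to 0.786) and without plate 1, 5 or 7 in monoculture (up to 0.419).

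At the lower ketoconazole doses Sult1a1 did not pass the test. In co-culture on day 1, Sult1a1 read 92.4, 65.3, 195 and 45.5 CPM at 1 µM and 55.5, 192, 91.2 and 38.6 CPM at 10 µM. The monoculture wells had 91.3, 91.7, 125 and 21.9 CPM at 1 µM and 79.9, 230, 99.8 and 37.8 CPM at 10 µM. All of these overlapped vehicle. On day 3 at 30 µM, Sult1a1 read 7.98, 3.24, 5.94 and 7.33 CPM in co-culture, against 154, 62.4, 34.5 and 124 CPM with vehicle, and 9.55, 7.5, 1.06 and 23.3 CPM in monoculture, against 133, 69.1, 80.7 and 162 CPM.

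These day 3 groups did not overlap either, with log2 fold changes of -3.94 ± 1.16 and -3.44 ± 1.12. By edgeR they passed with the plate as a block (adjusted p = 0.0321 and 0.0358) and not without it (0.207 and 0.238). With the block 2.07% and 2.71% of all probes passed, and without it 0.112% and 0.179%. Both also passed under another of the alternatives. DESeq2 called 2 members in co-culture and 1 in monoculture there, beside 172 and 184 of all 13439 probes. By day 7 the treated wells overlapped vehicle, at 46.6, 13.4, 21.8 and 16.3 CPM in co-culture against 27.4, 49.1, 46.4 and 83.6 CPM. The difference between the day 7 and the day 1 response was 2.27 ± 1.24 in co-culture and 2.01 ± 1.24 in monoculture on the log2 scale and did not pass (adjusted p = 1 and 0.404). Foxa3 fell with ketoconazole on day 1 in both cultures, to 15.6, 60.1, 72.0 and 54.8 CPM in co-culture against 182, 349, 386 and 200 CPM. Papss2, which makes PAPS, averaged 17.5 CPM with ketoconazole and 47.1 CPM with vehicle in co-culture (log2 fold change -1.43, adjusted p = 0.00717), and Slc26a1 fell there too (-3.74). Hepatocyte markers summed to 24014 to 58034 CPM with ketoconazole in co-culture, against 44256 to 88601 CPM, and their part was not tested.

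Gemfibrozil at 1000 µM lowered Sult1a1 and Ugt1a5 on day 1 in co-culture. There 2 of 15 tested members passed, beside 2.18% of all probes, and in monoculture 0 of 15 passed, beside 3.06%. At an unadjusted p under 0.05 the monoculture count was 3, beside 2271 of all 12504 probes tested. It was 1 by DESeq2 (6.77% of all probes) and 1 with the plate as a block (6.09%). Sult1a1 read 5.76, 32.1, 20.2 and 37.1 CPM with gemfibrozil in co-culture, against 134, 236, 235 and 70.8 CPM with vehicle, without overlap (log2 fold change -2.80 ± 0.76, adjusted p = 0.0297). In monoculture Sult1a1 had 4.78, 23.8, 20.1 and 72.4 CPM, against 94.9, 115, 334 and 51.9 CPM, overlapping through plate 7 (-2.27 ± 0.74, adjusted p = 0.069).

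Ugt1a5 read 52.4, 184, 98.1 and 240 CPM with gemfibrozil in co-culture, against 400.5, 522, 555.6 and 649.4 CPM, without overlap (-1.87 ± 0.45, adjusted p = 0.0146). In monoculture Ugt1a5 had 67.3, 194, 84.2 and 506 CPM, against 352.3, 440.1, 459 and 387.2 CPM, with plate 7 above every vehicle well (-0.92 ± 0.44, adjusted p = 0.244). Both co-culture calls were lost without plate 1, 3 or 5 (adjusted p up to 0.292 for Sult1a1 and 0.24 for Ugt1a5). Ugt2b15 in co-culture read 23.1, 48.2, 45.6 and 40 CPM against 100, 121, 163 and 84.0 CPM, without overlap, with -1.55 ± 0.46. It lay just past the threshold (adjusted p = 0.0519) and passed with the plate as a block (0.0225), where 6.26% of all probes passed.

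With gemfibrozil the plate 7 wells stood apart from the others. On day 3 in co-culture Sult1a1 read 1.35, 4.52, 112.3 and 0.957 CPM on plates 1, 5, 7 and 9 with gemfibrozil, against 154, 62.4, 34.5 and 124 CPM on plates 1, 3, 5 and 7 with vehicle. The monoculture wells had 1.28, 2.88, 3.47, 251.5 and 2.16 CPM on plates 1, 3, 5, 7 and 9, against 133, 69.1, 80.7 and 162 CPM on plates 1, 3, 5 and 7. All wells but those of plate 7 were below every vehicle well, and the plate 7 wells were within or above the vehicle range. Sult1b1 read 25.4 CPM in the plate 7 well and 0 to 2.23 CPM in the other 3 co-culture wells, and 33.5 CPM against 0 to 1.73 CPM in the other 4 monoculture wells. Pdk4, a classical PPARα target, was at 0.15 and 0 CPM in the plate 7 wells of co-culture and monoculture, and at 6.78 to 28.9 CPM in the other treated wells of day 3, against 0 to 3.07 CPM with vehicle.

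With plate 7 in the fit, Sult1a1 did not pass on day 3 (log2 fold changes -1.65 ± 1.04 and -1.12 ± 0.96 in co-culture and monoculture). Without plate 7 the log2 fold changes were -4.93 ± 1.13 and -4.99 ± 0.99. On day 1 without plate 7, those of Sult1a1 with gemfibrozil were -3.35 ± 0.72 in co-culture and -3.44 ± 0.72 in monoculture, and those with phenobarbital 10 mM were -2.77 ± 0.70 and -2.71 ± 0.69. Plate 7 was singled out because Sult1a1 stood high on it, so the values without it are a description, with no test.

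Bpnt1, which breaks down the product left when PAPS has given up its sulfonate, rose with gemfibrozil in both cultures on day 1, averaging 27.1 CPM against 8.84 CPM in co-culture (log2 fold change 1.63, adjusted p = 0.0242) and 30.0 against 9.36 CPM in monoculture (1.71, adjusted p = 0.0145). Foxa3 fell in both (-2.35 and -2.03). Hepatocyte markers summed to 20670 to 30144 CPM with gemfibrozil in co-culture, against 44256 to 88601 CPM with vehicle, and their part was not tested. GW7647 at 1 µM, the other compound that acts through PPARα, left Sult1a1 at 161, 244, 90 and 50.7 CPM in co-culture and 105, 186, 266 and 42.4 CPM in monoculture on day 1, overlapping the vehicle wells (log2 fold changes -0.32 ± 0.71 and 0.02 ± 0.71). Over the 3 days 0 members passed with GW7647 in either culture by edgeR, beside 0.0378% of all probes in co-culture and 0.0681% in monoculture (0.12% and 0.112% on day 1). DESeq2 gave 1 in monoculture, Ugt2b15 on day 3 (log2 fold change 3.34, adjusted p = 0.00573, against 2.86 ± 0.86 and 0.255 by edgeR; its plate 9 well read 330.8 CPM and the other 3 treated wells 13.9 to 92.0 CPM), and 0 in co-culture. At an unadjusted p under 0.05 the members numbered 0, 3 and 0 on days 1, 3 and 7 in co-culture and 0, 5 and 0 in monoculture. The plate 9 values enter the day 3 tests. Of all 13439 probes tested on day 3, 1368 in co-culture and 1551 in monoculture had an unadjusted p under 0.05. DESeq2 called 113 of all probes in monoculture on day 3.

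Phenobarbital at 10 mM lowered Ugt1a5 on day 1 in co-culture, and Ugt2b10 and Ugt2a1 were high on 2 of the 4 plates in both cultures. In co-culture 1 of 15 tested members passed, beside 2.81% of all probes, and in monoculture 0 of 15 passed, beside 4.33%. At an unadjusted p under 0.05 the monoculture count was 6, beside 2256 of all 12504 probes tested. It was 2 by DESeq2 (6.33% of all probes, and 5.89% in co-culture) and 4 with the plate as a block (7.41% of all probes, against 6.87% for co-culture). Ugt1a5 read 148, 227, 135 and 187 CPM with phenobarbital in co-culture, against 400.5, 522, 555.6 and 649.4 CPM with vehicle. The monoculture wells had 162, 225, 92.1 and 148 CPM, against 352.3, 440.1, 459 and 387.2 CPM. Neither culture had any overlap, and Ugt1a5 was lower on 4 of 4 plates in both. The log2 fold changes were -1.59 ± 0.44 (adjusted p = 0.0314) and -1.34 ± 0.44 (adjusted p = 0.0627, and 0.0297 with the plate as a block). The co-culture call was lost without any of the 4 plates (adjusted p up to 0.217).

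Ugt2b10, like Ugt2a1 and Ugt2b35 described after the values were seen, was high at 10 mM on plates 1 and 3 only. In co-culture on day 1 it read 5.26, 8.86, 12.8 and 0.19 CPM with vehicle on plates 1, 3, 5 and 7, 24.4, 9.19, 21.8 and 7.82 CPM at 0.1 mM, 39.6, 16.2, 21.9 and 22.4 CPM at 1 mM, and 103.4, 100, 5.28 and 0.585 CPM at 10 mM. In monoculture it had 13.2, 3.01, 15.7 and 5.73 CPM with vehicle, 13.6, 11.5, 11.1 and 14.3 CPM at 0.1 mM, 29.7, 24.0, 44.1 and 23.3 CPM at 1 mM, and 114.8, 130.5, 3.66 and 6.73 CPM at 10 mM. At 1 mM all 8 wells were above every vehicle well. At 10 mM plates 1 and 3 stood higher still, while plate 5 lay below its own vehicle well and plate 7 slightly above it in both cultures.

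Ugt2b10 did not pass at 10 mM (log2 fold changes 2.96 ± 0.94 and 2.81 ± 0.93 in co-culture and monoculture, adjusted p = 0.0628 and 0.0641) unless the plate was a block (0.0312 and 0.0358) or DESeq2 was used (0.0104 and 0.0145). At 1 mM it was higher than vehicle on 4 of 4 plates in both cultures on days 1 and 7. On day 3, with 3 plates, it was higher on 1 and lower on 1 in co-culture, and higher on 2 and lower on 1 in monoculture. The day 1 changes there were 1.87 ± 0.90 and 1.68 ± 0.89 with an adjusted p of 1 in both. Ugt2a1 (probe 47105) had the same shape at 10 mM, with 20.7, 20.6, 2.77 and 8.39 CPM in co-culture and 39.3, 30.1, 1.43 and 10.3 CPM in monoculture, against group means of 2.54 and 5.01 CPM with vehicle. It passed only with the plate as a block (adjusted p = 0.0181 and 0.0192). The opposite direction was called for its other probe, 50422, in monoculture with the block (adjusted p = 0.0821 by edgeR without it). That probe averaged only 0.880 CPM in the monoculture vehicle wells of day 1, so the 2 probes cannot be compared there.

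The plates that were high in Ugt2b10 were also high in known phenobarbital targets. Hnf4a was below every vehicle well on plates 5 and 7, and within or above the vehicle range on plates 1 and 3. At 10 mM in co-culture on day 1, Cyp2b2 read 45.5, 8.83, 0.503 and 0 CPM on plates 1, 3, 5 and 7. Cyp3a23/3a1 read 28.9, 34.3, 4.65 and 4.68 CPM there, against 0.607 to 7.53 CPM over the vehicle wells of both cultures. Hnf4a read 425, 271, 74.8 and 18.1 CPM with phenobarbital, against 135, 217, 279 and 179 CPM with vehicle in co-culture, and 196, 341, 40.5 and 18.5 CPM against 155, 299, 369 and 178 CPM in monoculture. Pdk4 ran otherwise, at 8.32, 3.68, 21.6 and 62.4 CPM in co-culture. The part of these differences between plates in the Ugt2b10 values was not tested. Papss2 averaged 18.0 CPM with phenobarbital and 47.1 CPM with vehicle in co-culture (log2 fold change -1.37, adjusted p = 0.0132), and Slc26a1 fell in both cultures (-2.35 and -2.25).

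**Figure D3:**
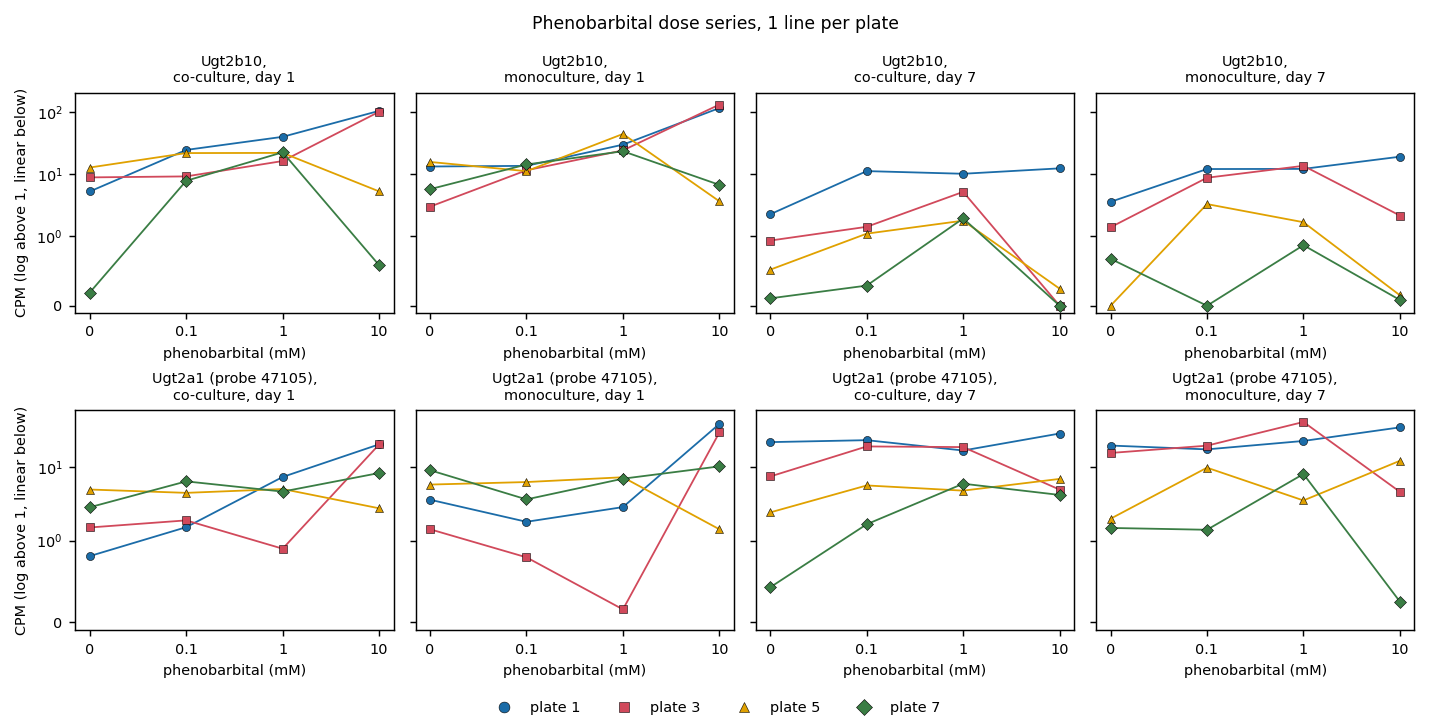
Level (CPM, logarithmic above 1 and linear below) of Ugt2b10 (upper row) and Ugt2a1 by probe 47105 (lower row) against the phenobarbital dose (mM, 0 is vehicle) on days 1 and 7; each line joins the wells of 1 plate. On day 1 the lines of plates 1 and 3 reach 100 to 130.5 CPM of Ugt2b10 at 10 mM while those of plates 5 and 7 end at 0.585 to 6.73 CPM.

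On days 3 and 7 no member passed with phenobarbital unless the plate was a block. Ugt2b10 at 10 mM on day 7 read 12.4, 0, 0.246 and 0 CPM in co-culture and 19.0, 2.17, 0.151 and 0.083 CPM in monoculture, so that only plate 1 kept a clear level. Ugt2b35 read 136, 19.5, 139 and 61.1 CPM with phenobarbital in monoculture on day 7, against 43.8, 26.2, 6.14 and 22.1 CPM with vehicle, and 64.1, 36.5, 64.6 and 71.4 CPM in co-culture, against 30.3, 22.2, 8.68 and 20.8 CPM. All co-culture wells exceeded all vehicle wells, and in monoculture plate 3 did not. The log2 fold changes were 1.87 ± 0.67 (adjusted p = 0.159, and 0.0154 with the block, where 4.87% of all probes passed) in monoculture and 1.59 ± 0.67 (adjusted p = 0.573, and 0.131 with the block) in co-culture. Over days 3 and 7, 0 of the 16 tested members passed by edgeR in any of the 16 comparisons of a top dose with vehicle. Of these 256 member tests 29 had an unadjusted p under 0.05, 6 passed with the plate as a block and 4 by DESeq2. At an unadjusted p under 0.05, 1222 to 3170 of all 13439 probes passed per comparison on day 3. On day 7 these were 141 to 3471 of 13707. With the block 2 to 2399 passed on day 3 and 0 to 1626 on day 7, and by DESeq2 113 to 1475 and 1 to 1859. On day 3 the share of all probes that passed by edgeR in co-culture and monoculture was 3.28% and 2.62% with phenobarbital. It was 1.08% and 0.908% with gemfibrozil and 0% and 0.0967% with GW7647. On day 7 it was 0.0219% and 1.23% with phenobarbital, 0% and 5.11% with ketoconazole and 0% in both cultures with the other 2 compounds.

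**Figure D4:**
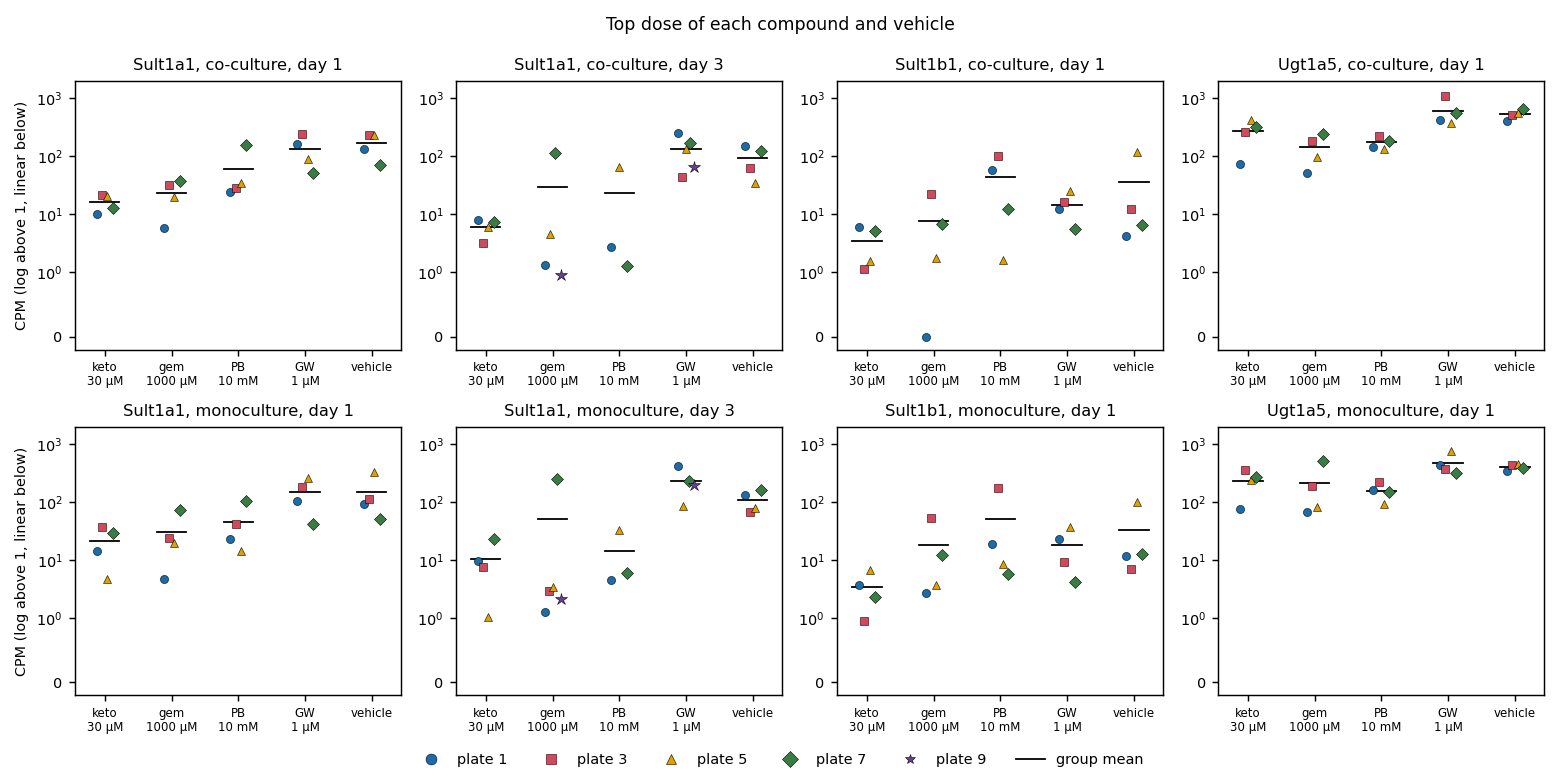
Level (CPM, logarithmic above 1 and linear below) of Sult1a1 on days 1 and 3 and of Sult1b1 and Ugt1a5 on day 1 at the top dose of ketoconazole (keto), gemfibrozil (gem), phenobarbital (PB) and GW7647 (GW) and with vehicle, in co-culture (top) and monoculture (bottom); each point is 1 library, the symbol gives its plate and the bar is the group mean. Sult1a1 with ketoconazole lies below every vehicle point on both days, and on day 3 with gemfibrozil only the plate 7 diamond, at 112.3 and 251.5 CPM, is not below.

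**Figure D5:**
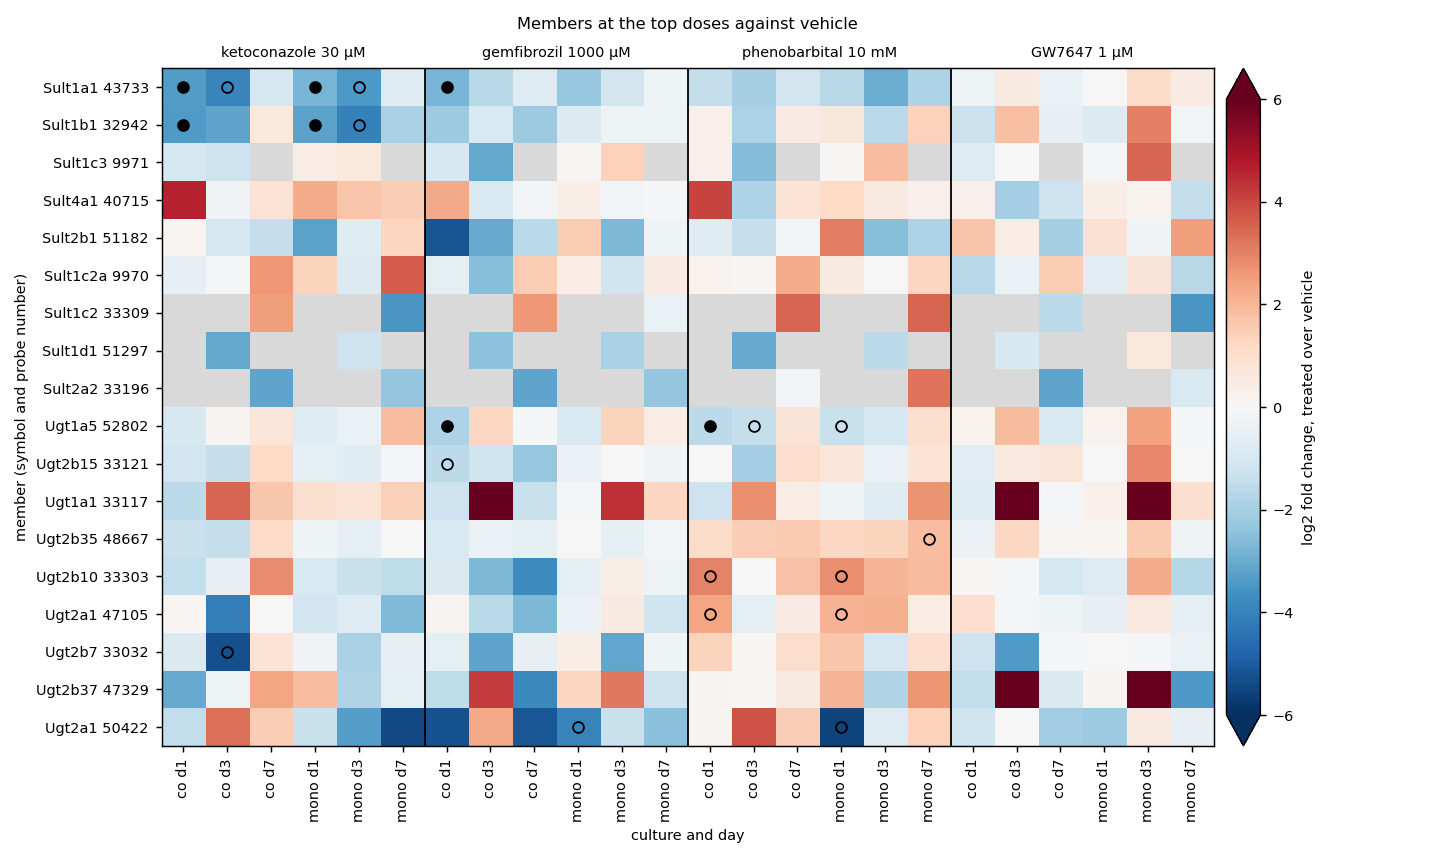
Fitted log2 fold change of each tested member at the top dose over vehicle, by compound, culture and day; red is higher and blue lower with treatment, with colours capped at 6 in either direction, and grey was not tested. Filled circles passed the adjusted p of 0.05 by edgeR, and open circles passed by edgeR with the plate as a block but not without it. The dark red day 3 cells of Ugt1a1 and Ugt2b37 are those that rest on plate 9.

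Co-culture and monoculture did not differ in any member past the threshold. Between co-culture and monoculture vehicle wells, 0 of 47 tests of members over the 3 days passed by edgeR, as did 0 of 39650 tests of all probes (0%). Of the member tests 1 had an unadjusted p under 0.05 (2.13%, against 1.68% of all probes), and 0 passed with DESeq2 or in the blocked fit. The intervals were wide: the difference between cultures was 0.40 for Ugt1a5 on day 1 (95% interval -0.45 to 1.25 on the log2 scale) and 0.21 for Sult1a1 (-1.18 to 1.59). The responses to the top doses did not differ detectably between the cultures either, with 0 of 188 member tests past the threshold by edgeR (0.00189% of all probes). At an unadjusted p under 0.05 there were 7 (3.72%, against 3.00% of all probes), and DESeq2 and the block called 0. For Sult1a1 on day 1 the co-culture response minus the monoculture response was -0.56 for ketoconazole (95% interval -2.54 to 1.42) and -0.53 for gemfibrozil (-2.50 to 1.44).

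At the lower doses of the 4 compounds, 0 of 752 member tests passed by edgeR, beside 0.00205% of all probes. At an unadjusted p under 0.05 there were 42 (5.59%), against 4.67% of all probes. DESeq2 called 0, beside 3035 of 634400 tests of all probes. The fit with the plate as a block called 1, Ugt2b15 with gemfibrozil 100 µM in co-culture on day 1 (log2 fold change -1.23, adjusted p = 0.047). In that comparison 1429 of all 12504 probes passed with the block, so the 1 call does not set the members apart. The smallest adjusted p without the block was 0.124 for the same gene and group. The responses to the top doses were also compared between days 7 and 1: 0 of 152 member tests passed by edgeR, beside 0.0683% of all probes, with 10 at an unadjusted p under 0.05 (6.58%, against 5.25% of all probes). DESeq2 called 2, both of Ugt2b37, at under 1 CPM in most wells, beside 731 of 118592 tests of all probes.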

How the data were processed

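RNA was measured by TempO-Seq, in which pairs of probes are ligated on the RNA and sequenced. The deposited values are whole-number counts per probe, made for the authors by BioSpyder, per the labels' protocols. Bowtie is named in the submitters' processing notes, and its version is not given in the sources used here. The members and gene lists were chosen with earlier results of these data known.

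The counts were fitted with edgeR 4.0.16 (R 4.3.3), with TMM scaling, filterByExpr at a minimum count of 10 and the quasi-likelihood test. P-values were adjusted by Benjamini-Hochberg over all probes tested in a comparison, and 0.05 was the threshold. The vehicle libraries were fitted together for time. Each day was fitted apart, with all its groups, for compounds and for co-culture against monoculture. All 311 libraries were fitted jointly for differences between days. CPM used the TMM factors of the joint fit. An SE is the log2 fold change divided by the root of F.

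Libraries were grouped by the compound, dose and day in their names. Members named by rule were those called between days 7 and 1, and those called at a top dose with a group mean of at least 10 CPM. The others are marked in the text as chosen after their values were seen. 1 listed gene that is not a member is not reported here.

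The sample titles give a plate number and a well, and libraries with the same plate number were treated here as a batch. Residuals correlated at a mean of 0.176 to 0.268 within plates and at -0.0473 to -0.089 between plates, over the 4 fits. The alternatives were DESeq2 1.42.0, its size factors, no count filter, the plate as a block, and leaving out the library under 1000000 counts or each plate. On simulated counts of 11823 probes, for day 7 against day 1 in monoculture, 8%, 34%, 66% and 90% of genes changed 2-, 4-, 8- and 16-fold were recovered. On 12504 probes, for ketoconazole 30 µM in co-culture on day 1, the shares were 6%, 38%, 68% and 66%. Simulated counts were drawn independently for each library, with no plate effect and 50 changed genes per fold. The real libraries correlated within plates and more of their probes passed, so these shares need not hold for them.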

Additional observations from a re-analysis of the deposited data

Results flagged for a closer look

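A gap test on log2(CPM + 1) was applied to 93 groups of 4 or 5 libraries of the named members. It marked 21 of them because 1 library lay far from the others. The marked library was on plate 9 in 14 of the 21. Chance marks about 1 in 20 groups, but the plate 9 groups of Ugt1a1, Ugt1a5 and Ugt2b37 were included after plate 9 was seen to stand apart, so the tally cannot be set against that rate. Ugt1a1 read 2383 CPM there with gemfibrozil 10 µM, 1307 CPM with gemfibrozil 100 µM and 1284 CPM with GW7647 1 µM, all in co-culture on day 3. Ugt1a5 read 5822 CPM with gemfibrozil 10 µM in monoculture and 4422 CPM in co-culture. Ugt2b37 was marked in all 9 groups with a plate 9 library. In co-culture it read 21.05, 17.77 and 5.903 CPM with gemfibrozil 10, 100 and 1000 µM, and 53.83 and 34.54 CPM with GW7647 0.1 and 1 µM. In monoculture it read 41.54, 33.45 and 3.319 CPM with the same gemfibrozil doses and 109.6 CPM with GW7647 1 µM.

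Sult1a1 stood at 251.5 CPM on plate 7 with gemfibrozil 1000 µM in monoculture on day 3, far above the other 4 wells. Ugt2b7 read 0.5787 CPM on plate 7 with ketoconazole 30 µM in co-culture on day 3 and 0 in the other 3 wells. The remaining 5 marks concern low values. In vehicle wells, Sult1c3 read 0.427 CPM on plate 7 in co-culture on day 7, 0.354 CPM on plate 7 in monoculture on day 3 and 0.1659 CPM on plate 5 in monoculture on day 7, each beside wells at 0. Ugt2a1 by probe 47105 read 0 CPM on plate 1 in monoculture vehicle wells on day 3. Ugt2a1 by probe 50422 read 0.1394 CPM on plate 5 with gemfibrozil 1000 µM in monoculture on day 1. No cause was tested for any of these.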

How the results depend on the processing

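No result reversed under any alternative. Brackets give the calls among all probes tested, under the same alternative. With DESeq2 the members called for day 3 against day 1 were 4 instead of 1 in monoculture (868 of 11823) and 3 instead of 1 in co-culture (1926). For day 7 against day 1 in monoculture they were 4 instead of 3. With phenobarbital, on day 1, they were 2 instead of 0 in monoculture (792 of 12504) and 2 instead of 1 in co-culture (737). GW7647 gave 1 instead of 0 in monoculture, on day 3 (113 of 13439). Gemfibrozil, on day 1, gave 1 instead of 0 in monoculture (846 of 12504) and 3 instead of 2 in co-culture (790). Ketoconazole gave 4 instead of 2 in co-culture, over day 1 (792 of 12504) and day 3 (172 of 13439). In monoculture ketoconazole gave 2 on day 1 (1524) and 1 on day 3 (184), where edgeR gave 2 and 0. The difference between day 7 and day 1 responses gave 2 instead of 0 (731 of 118592 tests). With the plate as a block the members called for day 3 against day 1 were 3 in monoculture (577 of 11823) and 3 in co-culture (1625). They were 5 instead of 3 for day 7 against day 1 in monoculture. Phenobarbital gave 5 in monoculture, over day 1 (927 of 12504) and day 7 (668 of 13707). It gave 4 in co-culture, over day 1 (859 of 12504) and day 3 (2399 of 13439). Gemfibrozil, on day 1, gave 1 in monoculture (761 of 12504) and 3 instead of 2 in co-culture (783). Ketoconazole gave 4 instead of 2 in monoculture, over day 1 (1330 of 12504) and day 3 (364 of 13439). In co-culture ketoconazole gave 1 on day 1 (904) and 2 on day 3 (278), where edgeR gave 2 and 0. At the lower doses there was 1 instead of 0 (1429 of 12504 in that comparison). Where members were gained, more of all probes passed too. For day 7 against day 1 in monoculture these were 3487 of 11823 with DESeq2, 3477 with the block and 2653 without either. The counts over time with either setting include Sult1c3 or Ugt2b10, with the limits given above. The block was not run for the differences between days. With no count filter the members called were 3 for day 3 against day 1 in monoculture, 0 with phenobarbital and 1 with ketoconazole in co-culture. With DESeq2's size factors, which moved the median of all probes by 0.12 in both cultures for day 7 against day 3, the 1 co-culture call of that step became 0. The cause was not tested.

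Leaving out 1 plate at a time gave 0 to 1 calls for day 3 against day 1, 0 to 3 for day 7 against day 3 and 1 to 3 for day 7 against day 1 in monoculture. In co-culture it gave 0 to 3, 0 to 2 and 0 to 5. For the top doses it gave 0 to 1 with phenobarbital in both cultures, 0 to 3 with gemfibrozil in both, 0 to 2 with ketoconazole in both and 0 with GW7647. Of 21 single calls, 7, 4, 4, 14 and 21 were kept without plates 1, 3, 5, 7 and 9, and 21 without the library under 1000000 counts. Members at a few counts per library were near or under the filter, and nothing is said of them beyond their counts.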
